A study of Homo sapiens with 4 samples.

Results

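The genes described here encode mitochondrial ribosomal proteins, the protein parts of the ribosome that works inside mitochondria. They were taken as every probe set with exactly 1 gene symbol whose deposited symbol starts with MRPL (large subunit) or MRPS (small subunit) and a digit, with pseudogenes left out. This gave 74 probe sets of 72 genes, out of 19088 genes with such probe sets. Of the 72, 48 belong to the large subunit, 23 to the small subunit and 1, MRPS36, to neither. A filter on dim genes was passed by 71 of the 72 members and by 11453 genes in all, and these are the genes called tested below.

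RNA was measured on 1-colour arrays in DG75 clone AB7. DG75 is an established line of Burkitt's lymphoma, a cancer of B cells. All 4 libraries share the genotype given in the labels as Bcl6-/-;tetBCL6-HA, in which native BCL6, a transcriptional repressor, is disrupted and an HA-tagged copy is under tetracycline control. One library was grown without doxycycline (0 h) and 1 each had 16, 48 or 96 h with 1 µg/ml doxycycline. The line is 1 clone, and each time is 1 library. Untreated cells at the later times were not analysed here, so the length of culture and the length of treatment cannot be told apart. Nor were doxycycline-treated cells that lack the transgene, so the drug and the transgene cannot be told apart.

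Mitochondria keep a small genome of their own, and the proteins it encodes are core subunits of the respiratory chain and of ATP synthase. They are made on a dedicated ribosome whose RNAs come from that genome, while all its proteins are encoded in the nucleus, made in the cytosol and imported. Some of these proteins have counterparts in bacterial ribosomes and others are specific to mitochondria. Doxycycline belongs to the tetracyclines, which block the small subunit of bacterial ribosomes and can also inhibit translation in mitochondria.

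Values are log2 intensities as the authors deposited them, and a difference is always on the log2 scale. BCL6 itself was lower in each doxycycline library, with a log2 intensity of 11.10 without doxycycline and 10.58, 10.25 and 10.50 after 16, 48 and 96 h with it. In limma, the 3 doxycycline libraries differed from the 0 h library in BCL6 by -0.66 ± 0.17 (SE, adjusted p = 0.105). Times below are therefore names of labelled libraries and not a check of BCL6 induction. The B cell markers CD22, CD79A, CD79B, PAX5 and EBF1 passed the filter and MS4A1 did not. At 96 h minus 0 h, CD22 differed by 0.53, CD79B by 0.20, EBF1 by 0.67 and CD79A by -0.51. PAX5 passed the limma threshold of the doxycycline libraries against 0 h (0.88 ± 0.15 SE, adjusted p = 0.0335). Of markers of other cells, the T cell genes CD3E and CD3G passed the filter, at 7.28 and 6.94 at 0 h and 7.92 and 6.97 at 96 h. CD3D and CD2 did not pass it, nor did any of 4 monocyte or 3 erythroid genes. The part of these markers in the results below was not tested. In bulk RNA, fewer cells of a type and less RNA per cell cannot be told apart.

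The mitochondrial ribosomal protein genes lay close to the library without doxycycline at 16 h and a little below it at 96 h. At 16 h their median difference from 0 h was 0.035, between -0.35 for MRPL4 and 0.31 for MRPL39, and 30 of 71 were lower. The median over all tested genes was 0.023, with 46.0% lower. At 48 h the members had a median of -0.049 and 43 of 71 were lower, against a median of -0.0083 and 51.3% lower over all tested genes. At 96 h the median was -0.14 and 54 of 71 members were lower, which is 76.1%. Over all tested genes, the 96 h median was -0.029 and 54.8% were lower. The 3 comparisons share the 0 h library, and none has a replicate.

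**Figure D1:**
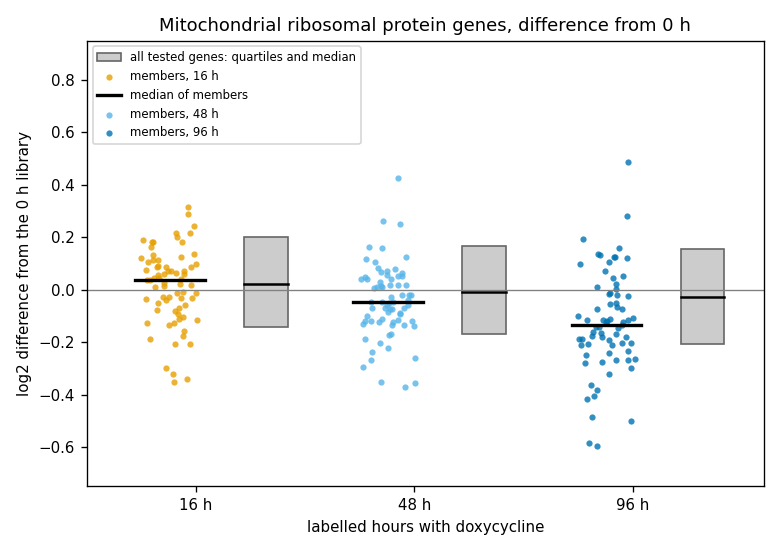
Log2 difference of each of the 71 tested members (points) from the 0 h library in the libraries labelled 16, 48 and 96 h, with the median of the members as a black line; grey boxes give the quartiles and the median of all 11453 tested genes. The members' medians were 0.035, -0.049 and -0.14, and their interquartile ranges of 0.17, 0.16 and 0.21 were narrower than the boxes, which span 0.34, 0.34 and 0.36.

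Sizes were small. Few members passed a 1.2-fold difference (0.26 on the log2 scale) at 16 h, with 4 lower and 2 higher, where 12.5% of all tested genes were lower and 18.9% higher by this rule. At 48 h, 5 members were at least 1.2-fold lower and 1 was higher, against 14.5% and 17.0% of all tested genes. At 96 h, 15 members, or 21.1%, were at least 1.2-fold lower, which is close to the 19.2% of all tested genes and so no result about these genes. On the other side, 2 members, or 2.82%, were at least 1.2-fold higher at 96 h, where 16.7% of all tested genes were. A 1.5-fold difference was reached by no member at 16 h, where 0.69% of all tested genes were lower and 4.34% higher by that size, and by none at 48 h, against 1.55% and 4.39%. At 96 h, MRPL35 and MRPL15 were at least 1.5-fold lower and none was higher, against 3.52% and 5.36% of all tested genes. Neither reached that size after quantile or loess scaling, in the second deposited table or after a correction for genomic span, where they lay between -0.58 and -0.54.

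The members also differed little from each other. The interquartile range of their differences from 0 h was 0.17 at 16 h, 0.16 at 48 h and 0.21 at 96 h. Over all tested genes the same ranges were 0.34, 0.34 and 0.36. Members were brighter and shorter than the rest, with a median log2 level of 8.76 against 7.48 and a median genomic span of 8618 bases against 25850. Their part in the narrow range was not tested. Among the 7635 genes at or above the 60th percentile of brightness, 67 of them members, the ranges were 0.33, 0.35 and 0.42, with 0.18, 0.16 and 0.20 for the members.

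**Figure D2:**
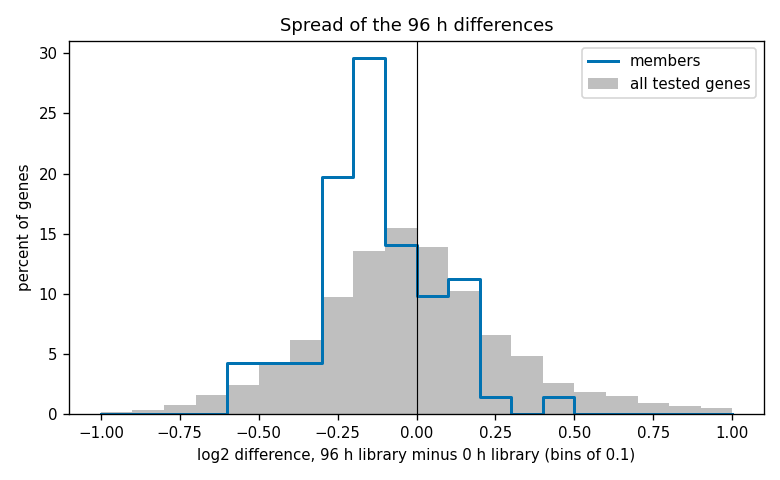
Percent of genes in each bin of 0.1 of the log2 difference between the 96 h and 0 h libraries, for all 11453 tested genes (grey bars) and the 71 members (blue line). The members pile up just below 0, with a median of -0.14; 32 tested genes below -1 and 172 at or above 1 lie outside the axis, and no member does.

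Setting the doxycycline libraries against each other leaves out the shared 0 h library. Between 16 and 96 h the members had a median of -0.13 and 60 of 71 were lower at 96 h, where all tested genes had a median of -0.058 and 59.1% were lower. Of the members, 14, or 19.7%, were at least 1.2-fold lower, near the 19.4% of all tested genes and so no result about these genes. At least 1.2-fold higher were 2 members, or 2.82%, against 10.7% of all tested genes. Scaled by quantiles, by loess or to equal medians, the members' counts were 7 and 4. The shares of all tested genes under these scalings are not given, so these counts have no background. Among genes at or above the 60th percentile of brightness the 96 h minus 16 h median was -0.11 and 68.6% were lower, which is nearer to the members. The members' median was -0.057 from 16 to 48 h and -0.076 from 48 to 96 h, against -0.0245 and -0.0265 over all tested genes. Among genes at or above the 60th percentile of brightness, these 2 medians were -0.051 and -0.049. After loess scaling the members were at -0.014 and -0.034, and all tested genes at -0.0091 and -0.0057.

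Each member has 4 values, which can be put in order. The library labelled 96 h held the lowest value of 44 members, or 62.0%, against 34.2% of all tested genes. The library labelled 16 h held the highest value of 32 members, or 45.1%, where 30.3% of all tested genes peaked there. Of the tested genes of the respiratory chain and ATP synthase, 62.0% were lowest at 96 h and 73.2% highest at 16 h. Neither trait is thus particular to the members. Among all genes at or above the 60th percentile of brightness, the shares were 40.6% and 36.5%. In 13 members the value was lower in each later library, against 9.81% of all tested genes, and in 3 members, MRPS36, MRPL53 and MRPS27, it was higher in each later one, against 6.8%. All 3 doxycycline libraries lay below 0 h for 24 members and above it for 12, with 31.1% of all tested genes in each direction. The share on the low side, 33.8%, is near this background.

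No member passed the limma threshold. With the 3 doxycycline libraries set against the 0 h library, 0 of 71 members had a Benjamini-Hochberg adjusted p under 0.05, where 1.31% of all tested genes did. At an unadjusted p under 0.05 the limma fit had MRPL46 and MRPL4 lower and MRPS27 higher, 3 members against 15.3% of all tested genes. The smallest adjusted p of a member was 0.229, for MRPL46. A second limma fit took the hours as a number, so that its value is the fitted change over 96 h. In it, 0 of 71 members passed, against 0.114% of all tested genes, and 5 had an unadjusted p under 0.05, against 13.6%. The smallest adjusted p there was 0.22, for MRPL35. The median SE of a member was 0.15 in the first fit and 0.16 in the second, which is the precision of a single gene's value. In simulated data these fits called 34% and 12% of changes of 0.5, so a missed threshold does not show that a gene kept its level.

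In the large subunit, MRPL35 and MRPL15, both with bacterial counterparts, were lowest in the 96 h library and close to 0 h at 16 h. MRPL35 had log2 intensities of 8.72, 8.69, 8.46 and 8.13 at 0, 16, 48 and 96 h, and was 1.51-fold lower at 96 h than at 0 h. Its fitted change over 96 h was -0.62 ± 0.15 (SE, limma adjusted p = 0.22). MRPL15 was at 8.44, 8.45, 8.37 and 7.85 in the same order, a difference of -0.59 at 96 h, with a fitted change of -0.60 ± 0.17 (limma adjusted p = 0.25). For MRPL15 the 96 h library stood apart from the other 3, while MRPL35 was already lower at 48 h.

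MRPL46 and MRPL4 were instead lower in all 3 doxycycline libraries. MRPL46 is a protein of the central protuberance, the crest of the large subunit that faces the small one, and had log2 intensities of 10.29, 9.94, 9.91 and 9.78 at 0, 16, 48 and 96 h. Its difference in limma, doxycycline libraries minus 0 h, was -0.41 ± 0.14 (SE, adjusted p = 0.229). MRPL4, whose bacterial counterpart lines the tunnel through which the new protein leaves, was at 9.06, 8.71, 8.77 and 8.58, with a limma difference of -0.38 ± 0.15 (adjusted p = 0.27). For both genes the step between 0 and 16 h was larger than either later step. MRPL54, a mitochondria-specific protein, had the same shape at a lower level, at 6.65, 6.35, 6.46 and 6.25.

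MRPL27, MRPL50 and MRPL14 were lower in each later library; MRPL14 was picked after its values were seen. MRPL27, the counterpart of a bacterial protein near the catalytic centre, was at 8.67, 8.54, 8.32 and 8.25 in the libraries labelled 0, 16, 48 and 96 h. MRPL50 was at 8.78, 8.65, 8.51 and 8.40, and MRPL14, which sits on the face between the subunits, at 8.32, 8.13, 8.08 and 7.95. Each stood highest at 0 h and lowest at 96 h, with limma adjusted p over the fitted change of 0.338, 0.368 and 0.432.

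Some large-subunit genes peaked at 16 h. MRPL39 was at 8.60, 8.92, 8.61 and 8.49 at 0, 16, 48 and 96 h, so that the 16 h library stood above the other 3. MRPL18 was at 9.69, 9.87, 9.59 and 9.51 with the same library on top. MRPL23, at the exit of the protein tunnel, was the reverse case, at 8.91, 8.58, 8.78 and 8.93, with the 16 h library lowest. MRPL55 was also lowest at 16 h, at 6.84, 6.63, 6.82 and 6.79. MRPL36 and MRPL52 were highest at 96 h, with differences from 0 h of 0.12 and 0.19.

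The stalk of the large subunit recruits translation factors. Its protein MRPL12 was at 8.996, 9.11, 9.01 and 8.98 at 0, 16, 48 and 96 h, MRPL10, which anchors it, at 8.52, 8.74, 8.57 and 8.66, and MRPL11 at the stalk base at 8.58, 8.64, 8.44 and 8.53. None of the 3 differed from 0 h by more than 0.22 in any library. Around the tunnel exit, MRPL22 (-0.19 at 96 h minus 0 h) and MRPL24 (-0.018) were lower at 96 h, and MRPL44 (0.072) and MRPL45 (0.16), which helps to hold the ribosome at the inner membrane, were higher. MRPL45 was at 11.45 at 0 h and at 11.62, 11.61 and 11.61 in the doxycycline libraries, which were nearly level. In the central protuberance, next to MRPL46 with -0.50, the 96 h differences were -0.022 for MRPL38, 0.13 for MRPL40 and -0.25 for MRPL48. MRPS30, a large-subunit protein despite its symbol, differed by 0.011 at 96 h.

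MRPL53 was the large-subunit gene that was highest above its 0 h value at 96 h. Its log2 intensities were 9.56, 9.76, 9.82 and 9.84, with a limma difference of 0.25 ± 0.14 (SE, adjusted p = 0.45). Over the large subunit, 37 of 47 tested genes, or 78.7%, were lower at 96 h than at 0 h, with a median of -0.12. Over all tested genes, 54.8% were lower and the median was -0.029. The 28 with a bacterial counterpart had a median of -0.14, with 24 (85.7%) lower. The 19 specific to mitochondria had one of -0.12, with 13 (68.4%) lower. The difference between these groups was not tested. MRPL13, the member below the filter, was at 4.80, 4.77, 4.64 and 4.53, and entered no test.

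In the small subunit, MRPS27 stood apart from the other members. This protein is built of pentatricopeptide repeats, a fold that binds RNA, and its gene had log2 intensities of 10.37, 10.59, 10.79 and 10.86 at 0, 16, 48 and 96 h. It was the highest member relative to 0 h at 48 and 96 h, 1.34-fold and 1.40-fold. The limma difference was 0.38 ± 0.16 (SE, adjusted p = 0.306) and the fitted change over 96 h 0.45 ± 0.17 (limma adjusted p = 0.318).

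The low side of the small subunit was made up of smaller differences. MRPS10, picked after its values were seen, was at 9.79, 9.69, 9.77 and 9.47, and MRPS22 at 7.25, 7.17, 6.90 and 6.99. MRPS12, a protein of the decoding centre where codon and anticodon meet, was at 7.95, 7.91, 7.90 and 7.68. For MRPS10 and MRPS12 the 96 h library stood apart from the other 3, and for MRPS22 the 48 and 96 h libraries lay below the other 2. MRPS9 peaked at 16 h, at 7.27, 7.56, 7.21 and 7.16. MRPS11 was higher in each doxycycline library, at 8.67 against 8.92, 8.83 and 8.80. MRPS25 and MRPS26 were lowest at 16 h, with differences from 0 h of -0.21 and -0.16, and stood at -0.19 and 0.10 at 96 h. Over the small subunit, 17 of 23 genes, or 73.9%, were lower at 96 h than at 0 h, against 54.8% of all tested genes. Their median was -0.18. The 13 with a bacterial counterpart had a median of -0.18, with 11 lower, and the 10 others one of -0.17, with 6 lower.

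Humans have 3 paralogs of the bacterial protein S18. MRPS18C and MRPS18B are small-subunit proteins and MRPS18A sits in the large subunit. MRPS18C was at 6.37, 6.48, 6.41 and 6.07 in the libraries labelled 0, 16, 48 and 96 h, and MRPS18B at 10.14, 10.03, 10.10 and 10.00. MRPS18A was at 9.19, 9.22, 9.12 and 9.12. MRPS18C was thus below 0 h at 96 h alone, at -0.30, while the 96 h differences of MRPS18B and MRPS18A were -0.15 and -0.065. The 3 probe sets of MRPS18B held the same values in every library and count as 1. MRPS36, now named KGD4 because its protein is part of the 2-oxoglutarate dehydrogenase complex and not a ribosomal subunit, was at 5.84, 5.91, 5.96 and 5.96.

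**Figure D3:**
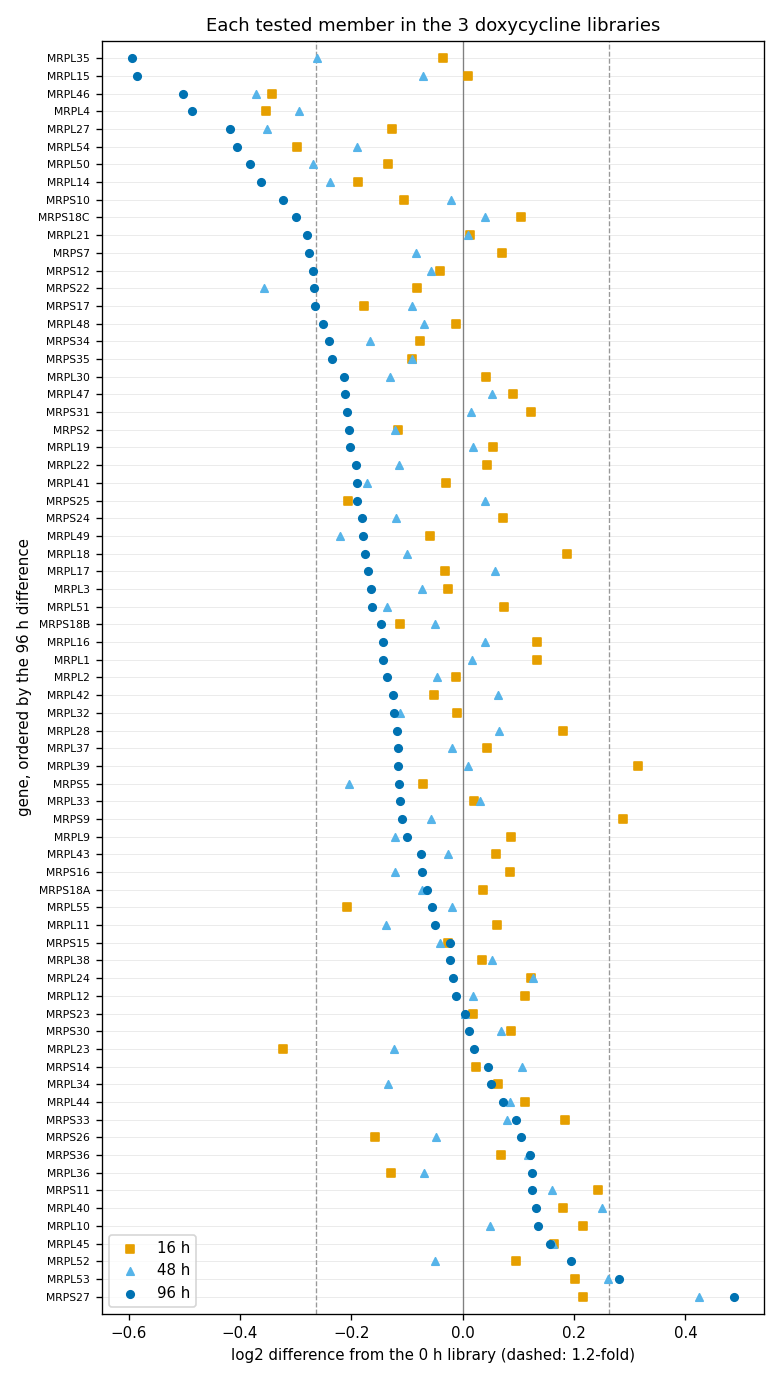
Log2 difference from the 0 h library for each of the 71 tested members, ordered by the difference at 96 h, in the libraries labelled 16 h (squares), 48 h (triangles) and 96 h (circles); dashed lines mark a 1.2-fold difference. MRPL35 and MRPL15 lie lowest at 96 h, at -0.59 and -0.59, and MRPS27 highest, at 0.49.

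Mitochondrial ribosomal protein genes deposited under other symbols lay on both sides of 0 h. MRPL57 and MRPL58 are among them, since these are their updated and not their deposited symbols. MRPL58, a peptidyl-tRNA hydrolase built into the large subunit, was at 8.89, 8.64, 8.55 and 8.35 at 0, 16, 48 and 96 h, lower in each later library. PTCD3, a small-subunit protein with pentatricopeptide repeats like MRPS27, was at 10.12, 10.42, 10.35 and 10.50, higher in each doxycycline library. The 7 genes of this list had 96 h differences between -0.54 and 0.37. Of the 7, 4 were lower, or 57.1%, near the 54.8% of all tested genes, and AURKAIP1 and GADD45GIP1 were at -0.24 and -0.078. None passed either limma threshold.

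Beyond the ribosome itself, no gene of the mitochondrial expression lists passed either limma threshold. Of 25 assembly factors, 16, or 64.0%, were lower at 96 h than at 0 h (median -0.042). This is near the 54.8% of all tested genes, whose median was -0.029. MALSU1, which keeps the immature large subunit from joining, was at 9.39, 9.22, 8.92 and 8.87, and NOA1, a GTPase needed for the small subunit, at 8.30, 8.46, 8.70 and 8.82, so the 2 ran in opposite directions. METTL15, an enzyme that methylates the small-subunit RNA, was higher at 48 h by 0.73, and MTERF3 at 16 h by 0.54. The 16 tested translation factors had a 96 h median of 0.019, with 8 lower. Among these, MTRFR (0.52), GUF1 (0.42) and GFM2 (0.37) were highest at 16 h relative to 0 h, and OXA1L, which inserts new proteins into the inner membrane, was higher by 0.33 at 48 h. The 20 mitochondrial aminoacyl-tRNA synthetase genes and their partners, which charge tRNAs, had a 96 h median of 0.027, with 9 lower. FARS2 was at 6.38 at 0 h and 6.96, 6.88 and 6.91 in the doxycycline libraries (limma difference 0.54 ± 0.14 SE, adjusted p = 0.11), and HARS2, QRSL1 and TARS2 were higher at 96 h by 0.27, 0.33 and 0.37.

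Genes for mitochondrial DNA and its transcription were mostly lower at 96 h. Of the 10, 7 were lower, against 54.8% of all tested genes, and 6 were lower by at least 1.2-fold, against 19.2%. Their median was -0.27, against -0.029. TFAM, which packages mitochondrial DNA and starts its transcription, was at 10.39, 10.23, 10.04 and 9.82 at 0, 16, 48 and 96 h. POLRMT, the mitochondrial RNA polymerase, was at 8.9995, 8.84, 8.78 and 8.63. Both were lower in each later library, while POLG2, the accessory subunit of the DNA polymerase, was at 6.87, 7.28, 7.60 and 7.41. MTERF1 was lower by 0.24 at 96 h. The limma adjusted p of the fitted change was 0.242 for TFAM and 0.398 for POLRMT.

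Among nuclear factors known to switch on such genes, NRF1 and GABPB1 were lower in each later library, and neither passed a limma threshold. NRF1 (nuclear respiratory factor) was at 6.98, 6.45, 6.29 and 6.09 at 0, 16, 48 and 96 h, 1.85-fold lower at 96 h, and its limma difference was -0.70 with an adjusted p of 0.095. GABPB1, a subunit of an ETS factor, was at 8.93, 8.60, 8.42 and 8.22, and GABPA, the subunit that binds DNA, at 8.85, 8.88, 8.86 and 8.87. The values of GABPA thus lay within 0.037 of each other while those of GABPB1 spanned 0.71. The coactivator genes PPARGC1B and PPRC1 were lower by 0.13 and 0.14 at 96 h, ESRRA and YY1 higher by 0.058 and 0.078, and PPARGC1A was below the filter; GABPA, ESRRA and YY1 were picked after their values were seen. Of the mitochondrial chaperones and proteases, 7 of 11, or 63.6%, were lower at 96 h, near the 54.8% of all tested genes. HSPA9 (-0.36), HSPE1 (-0.34) and LONP1 (-0.31) were among the lower, and HTRA2 was higher by 0.14.

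At each time against 0 h, the members' median lay below those of both similar gene groups. At 16 h it lay below that of the cytosolic ribosomal protein genes by little. The 68 tested genes of cytosolic ribosomal proteins had medians of 0.048, 0.14 and 0.19 at 16, 48 and 96 h. Of these, 53 were above 0 h in all 3 doxycycline libraries, against 12 of 71 members and 31.1% of all tested genes. The 71 tested genes of the respiratory chain and ATP synthase had medians of 0.14, -0.0078 and -0.085. In this group, 52 were highest in the 16 h library, against 32 of 71 members and 30.3% of all tested genes. The 96 h minus 16 h median of the respiratory chain group was -0.18, against -0.13 for the mitochondrial and 0.11 for the cytosolic ribosomal protein genes. The difference between the groups was not tested.

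Promoters were compared by their letters in windows of 250 bases before and 50 from the annotated start onward, from RefSeq (GRCh38.p14), which held 65 of the 72 members. The letters AAGATGGC, read on either strand and the core of sites of the factor YY1, were found in 20 of the 65 members, or 30.8%, against 6.82% of the 8762 tested genes with a window and 3.52% of all 27305. CCGGAAGT, the core of sites of ETS factors such as GABPA, was in 11 members, or 16.9%, against 10.3% and 4.95%. The palindrome of NRF1, GCGCA followed directly by TGCGC, was in 1, or 1.54%, against 2.83% and 1.52%. None of these motifs contains another. A match is a run of letters and not a shown site of binding. Members with AAGATGGC had a 96 h median of -0.16 (15 of 20 lower) and the other 45 one of -0.12 (35 lower). With CCGGAAGT the 96 h median was -0.16 (9 of 11 lower), and without it -0.12 (41 of 54 lower).

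The following 5 windows, picked after the values were seen, pair genes at the low and the high end of the members, with matches to AAGATGGC or CCGGAAGT in capitals. MRPL46 (chr15:88467339-88467638, minus strand) and MRPS11 (chr15:88467458-88467757, plus strand) are head-to-head neighbours that share the stretch between their starts. MRPL46 and MRPS27 (chr5:72320191-72320490, minus strand) hold AAGATGGC just after the start, at bases 259 to 266 and 267 to 274 of the window. MRPL27 (chr17:50373135-50373434, minus strand) and MRPL53 (chr2:74472631-74472930, minus strand) hold CCGGAAGT before it, MRPL27 in 2 places.
MRPL46: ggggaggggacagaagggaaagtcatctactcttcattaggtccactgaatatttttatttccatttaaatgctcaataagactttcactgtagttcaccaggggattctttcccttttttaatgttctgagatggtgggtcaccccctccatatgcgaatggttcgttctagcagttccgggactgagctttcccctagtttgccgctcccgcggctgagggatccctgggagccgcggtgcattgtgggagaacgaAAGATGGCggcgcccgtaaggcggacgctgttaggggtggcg
MRPS11: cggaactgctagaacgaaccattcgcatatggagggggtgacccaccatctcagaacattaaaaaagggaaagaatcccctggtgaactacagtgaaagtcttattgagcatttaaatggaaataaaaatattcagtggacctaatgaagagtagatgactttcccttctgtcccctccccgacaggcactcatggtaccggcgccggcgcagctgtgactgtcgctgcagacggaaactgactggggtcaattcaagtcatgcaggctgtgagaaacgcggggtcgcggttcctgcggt
MRPS27: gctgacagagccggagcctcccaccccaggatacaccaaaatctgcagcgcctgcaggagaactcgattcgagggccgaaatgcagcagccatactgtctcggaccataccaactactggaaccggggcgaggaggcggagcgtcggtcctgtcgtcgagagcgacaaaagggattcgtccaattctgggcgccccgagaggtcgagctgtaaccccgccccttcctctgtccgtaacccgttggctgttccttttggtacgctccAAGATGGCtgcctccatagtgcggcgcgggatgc
MRPL27: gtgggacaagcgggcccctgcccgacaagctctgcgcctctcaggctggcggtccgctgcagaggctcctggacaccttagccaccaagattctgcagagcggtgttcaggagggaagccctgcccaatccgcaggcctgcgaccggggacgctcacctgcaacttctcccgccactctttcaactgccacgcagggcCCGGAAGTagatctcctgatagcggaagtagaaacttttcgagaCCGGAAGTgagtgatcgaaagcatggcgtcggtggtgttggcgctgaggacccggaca
MRPL53: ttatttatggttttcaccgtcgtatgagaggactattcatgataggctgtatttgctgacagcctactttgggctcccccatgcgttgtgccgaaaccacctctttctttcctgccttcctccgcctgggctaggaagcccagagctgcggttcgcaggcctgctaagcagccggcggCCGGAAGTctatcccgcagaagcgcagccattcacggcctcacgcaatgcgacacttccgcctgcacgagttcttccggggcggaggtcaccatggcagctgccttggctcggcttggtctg

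By this choice of windows, each motif stood in a gene that was lower and in one that was higher at 96 h. The pairs are therefore examples and no result about the motifs. With AAGATGGC, the 96 h difference was -0.50 in MRPL46 and 0.49 in MRPS27. With CCGGAAGT, it was -0.42 in MRPL27 and 0.28 in MRPL53.

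Several members share a promoter region with a neighbour on the other strand. Among tested genes, 13 pairs had a member and a gene on the other strand whose starts lay at most 320 bases apart. At 96 h the 2 genes of a pair lay on the same side of 0 h in 4 pairs and on opposite sides in 9. Lower at 96 h were 76.1% of the members and 54.8% of all tested genes. No share over other gene pairs was computed, so the count is no result about these pairs. In some pairs the side rests on a small value, as for the partners PSMA2 (0.027), PTCD2 (-0.027) and FAU (-0.036). MRPL46 and MRPS11, 320 bases apart, lay on opposite sides at each time, with -0.34, -0.37 and -0.50 for MRPL46 and 0.24, 0.16 and 0.12 for MRPS11. MRPL14 likewise had -0.19, -0.24 and -0.36 where its neighbour TMEM63B had 0.21, 0.27 and 0.20. For MRPL50 the 3 differences were -0.13, -0.27 and -0.38, and for the zinc finger gene ZNF189 on its other side 0.63, 0.58 and 0.23. MRPL27 and EME1, a subunit of a DNA repair nuclease, with starts 45 bases apart, went the same way, at -0.13, -0.35 and -0.42 and at -0.12, -0.36 and -0.23. MRPL18 and the chaperonin gene TCP1 did too, at 0.19, -0.099 and -0.18 and at 0.056, -0.20 and -0.25. MRPS12 and SARS2, the mitochondrial seryl-tRNA synthetase, had 96 h differences of -0.27 and 0.15. No partner passed the limma threshold of the doxycycline libraries against 0 h, and the differences within pairs were not tested.

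**Figure D4:**
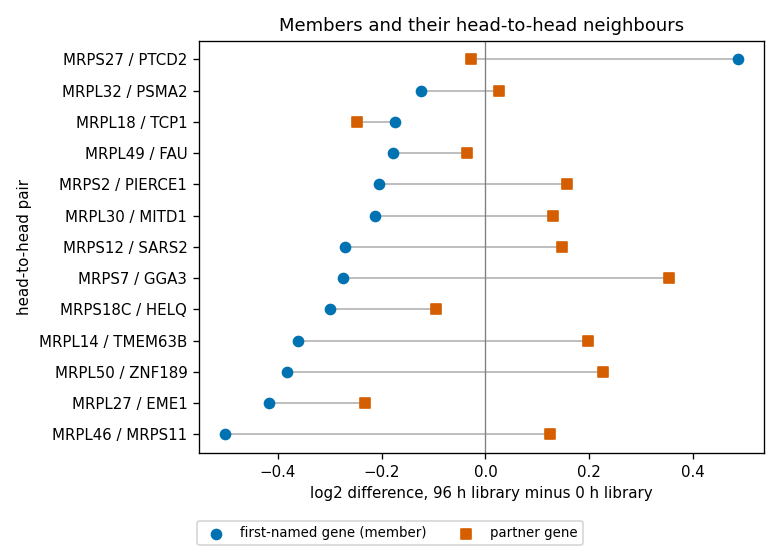
Log2 difference between the 96 h and 0 h libraries for the member named first (circles) and its head-to-head neighbour (squares) in 13 pairs. In 9 pairs the 2 genes lie on opposite sides of 0, as in MRPL46 (-0.50) and MRPS11 (0.12). No share over other gene pairs was computed.

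The members' median lay below that of all tested genes under every processing tried at 96 h, and not at 16 h. At 96 h minus 0 h, the members' median lay between -0.16 and -0.095 under the 8 alternatives. At 16 h it was 0.035 as deposited, -0.019 after quantile, -0.011 after loess and -0.068 after median scaling, so its sign is not settled. After a correction for genomic span it was 0.074 at 16 h, -0.0041 at 48 h and -0.13 at 96 h.

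**Figure D5:**
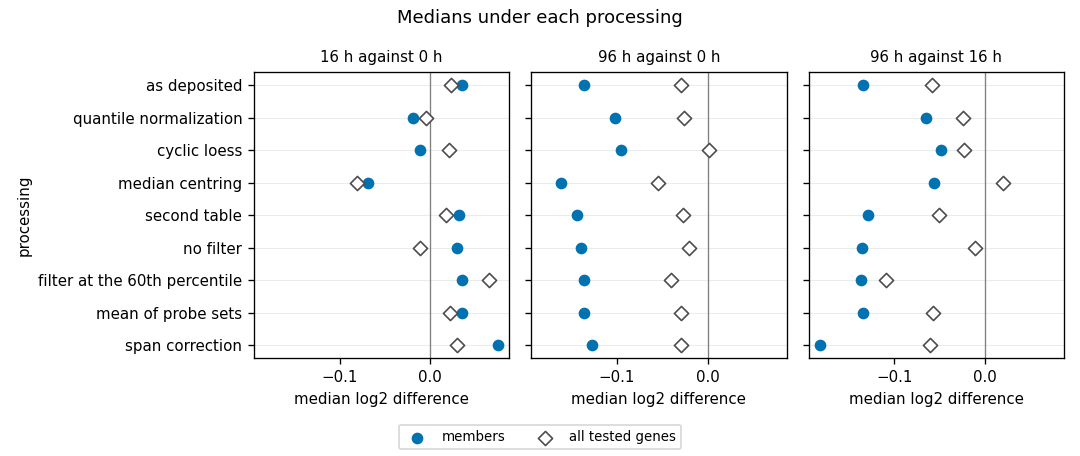
Median log2 difference of the members (filled circles) and of all tested genes (open diamonds) under the deposited values and 8 alternative processings, for 16 h against 0 h, 96 h against 0 h and 96 h against 16 h. At 96 h against 0 h the members lie below all tested genes in every row; at 16 h the 2 change places.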

How the data were processed

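RNA of 4 libraries of the DG75 clone was measured on 1-colour arrays, 1 library per time. The authors deposited log2 intensities per probe set in both a table of 33297 probe sets and a second table of 28869 with gene symbols, per the values, and their software, normalization and build were not given in the sources used here. Values came from the first table and symbols from the second, updated through RefSeq, with the probe set of the highest mean standing for a gene. A gene was tested if its average over the libraries reached the 40th percentile of all genes, a log2 value of 5.18. The tests were two-sided and run in limma 3.58.1 (R 4.3.3), and p-values were adjusted by Benjamini-Hochberg across the 11453 genes, with calls made under 0.05. One fit set the 3 doxycycline libraries against 0 h and one took hours as a number, with 2 residual degrees of freedom each, so their spread also holds change over time. No label says that libraries came from separate cultures, so the spread may be technical. With 1 array per time, their number limits the precision. Differences between single libraries have no test.

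On simulated data, with 200 of 11453 genes changed, the first fit recovered 34% of changes of 0.5 and 100% of changes of 1, with 21 false calls. The second recovered 12% and 92%, with 6 false calls. Members and lists were chosen with earlier results of these data known. Named members are the 6 with the largest difference each way at each time and from 16 to 96 h, and those of fixed structural roles. Of other lists, up to 4 genes with the largest mean difference are named. Exceptions are marked in the text. Alternatives were quantile, loess and median scaling, the second table, no filter or the 60th percentile, mean probe sets, a correction for genomic span, a 1.3-fold threshold, an intensity trend and leaving out libraries. Probe sets with several symbols were left out of the comparisons. One marker gene is not reported here.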

Additional observations from a re-analysis of the deposited data

Results flagged for a closer look

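Probe sets that carry a mitochondrial ribosomal protein symbol together with a second gene's symbol were left out of the comparisons. Of their differences from the 0 h library, 5 were at least 1.2-fold upward. Others of that size were downward. At 96 h, the sets shared by MRPL20 and LOC642393 differed by -0.54 and the set shared by MRPS28 and TPD52 by -0.55. The probe set shared by FBF1 and MRPL38 was higher by 0.46 at 96 h, at 6.60 against 6.14, while the probe set of MRPL38 alone differed by -0.022. The one shared by C2orf15 and MRPL30 was higher by 0.77 at 48 h and by 0.55 at 96 h. The one shared by CCDC142 and MRPL53 was higher by 0.28 at 48 h and differed by -0.24 at 96 h, where the probe set of MRPL53 alone differed by 0.28. The one shared by SLC5A3 and MRPS6 was higher by 0.36 at 16 h, and differed by 0.014 at 48 h and 0.15 at 96 h. Which of the 2 genes gave the signal cannot be told apart, and each value is 1 library against 1.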

How the results depend on the processing

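Each time is 1 array, which limits every difference between libraries. At 96 h against 0 h the members' median lay between -0.16 and -0.095 and below that of all tested genes under every alternative run. The 15 members at least 1.2-fold lower became 7 at a 1.3-fold threshold, and the 2 higher became 1 at that threshold and 1 after median centring. From 16 to 96 h, the 14 lower became 7 after quantile, 7 after loess and 7 after median centring, and 5 at the 1.3-fold threshold. The 2 higher became 4 after quantile, 4 after loess and 4 after median centring, and 0 at the 1.3-fold threshold. No share of all tested genes is given beside these counts. A stricter threshold calls fewer genes by construction, and the cause of the other moves was not tested. Median centring shifted the 16 h differences by more than 0.1, so that 53 members were lower there in place of 30. The 16 h median of all tested genes moved too, from 0.023 to -0.081, and the members' median stayed above it by 0.012. No member passed a limma threshold under any alternative, with the lone 0 h library assumed to vary like the others. Leaving out 1 library, the median limma value lay between -0.092 and -0.019 for the doxycycline libraries against 0 h and between -0.17 and -0.095 for the change with hours. Over the medians and counts that answer the comparisons, 171 recomputed values were classed as unchanged and 11, those given above, as moved. A median could shift by much of its size, or change sign, and still be classed as unchanged. At 16 h against 0 h, the members' median went from 0.035 to -0.068 after median centring and was so classed. From 16 to 48 h, it went from -0.057 to -0.014 after loess scaling and was so classed too. The count of 171 therefore does not show that the medians were stable. No paired analysis was possible because each time has 1 library.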

Other observations

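Other probe sets with several symbols lay below 0 h. The sets shared by MRPL20 and LOC642393, which hold identical values, were at 9.01, 8.58, 8.73 and 8.48 at 0, 16, 48 and 96 h. The set shared by MRPS28 and TPD52 was at 8.02, 7.88, 7.85 and 7.47, with the 96 h library apart from the other 3. The set shared by MRPS21 and C1orf51 was nearly level, at 9.72, 9.72, 9.72 and 9.70.

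The assembly factors MPV17L2 and MTERF4, picked after their values were seen, ran in opposite directions. MPV17L2, known to take part in building the mitochondrial ribosome, was at 9.53, 9.30, 9.30 and 9.01 at 0, 16, 48 and 96 h. MTERF4, which brings an RNA methylase to the large subunit, was at 6.36, 6.41, 6.70 and 6.89. Their limma adjusted p for the change with hours were 0.297 and 0.242.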
